A study of Mus musculus with 5 samples.

Results

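The genes described here are 10 members of the Wnt/beta-catenin pathway: the feedback genes Axin2, Nkd1, Nkd2, Rnf43, Znrf3 and Dact1, and the TCF/LEF transcription factor genes Lef1, Tcf7, Tcf7l1 and Tcf7l2. They were chosen by name, as rows whose gene symbol is, or contains, one of these names. All 10 were found, at 14 of 61082 loci, and none lay in a locus that joined several genes. Axin2, Znrf3, Dact1 and Tcf7 had 2 loci each, and the locus with the highest mean level was used unless stated.

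RNA-seq of mouse embryonic fibroblasts (MEFs, connective-tissue cells grown from embryos) gave 5 libraries, 1 for each group, all of C57BL/6 background and at passage 30. Of these, 4 came from Prep1 hypomorphic MEFs, taken from E14.5 embryos that make little of the homeodomain protein Prep1 (gene Pknox1). EV was infected with an empty vector, M overexpressed the related homeodomain protein Meis1, P overexpressed Prep1, and MP overexpressed both. The last library, WT, had the wild-type Prep1 genotype. Its label names no vector, and its growth text is the one given for the hypomorphic cells. The labels do not say whether a line was 1 clone or how overexpression was driven. With 1 library per group there is no replicate spread, no test across conditions and no p-value. Every difference below is one between 2 libraries, and neighbours in an order of levels cannot be told apart by error. Sequencing depth is unknown.

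In Wnt signalling, a Wnt ligand bound to Frizzled and Lrp5 or Lrp6 stops the destruction complex, built on Axin and Apc, from marking beta-catenin for decay. Beta-catenin then enters the nucleus and joins TCF/LEF proteins, which otherwise hold their target genes down with Groucho/Tle corepressors. Several targets feed back on the pathway: Axin2 rebuilds the destruction complex, Nkd proteins bind Dishevelled, Dact1 also binds Dishevelled, and Rnf43 and Znrf3 are membrane ubiquitin ligases that remove Frizzled. In fibroblasts and their mesenchymal precursors the pathway acts in patterning, matrix production and the choice between bone, cartilage and fat.

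Levels are in scaled units: the deposited FPKM (fragments per kilobase of transcript, relative to library size) divided by 1 factor per library, chosen to bring the upper quartile of single-gene loci that reach 1 FPKM somewhere to 10. FPKM is per transcript length, so levels of different genes can be set side by side, but how well they follow abundance between genes was not tested. In EV, Axin2 stood at 49.0 units and Col1a2, the highest fibroblast marker, at 22.3. Differences are log2((level + 1)/(level + 1)), and a gene was called 2-fold apart at 1 or more in size if it reached 1 unit in either library. Scaling was needed because the upper quartile was 157 and 429 FPKM in EV and M and between 9.63 and 12.2 FPKM in the other libraries. The libraries also differed at both ends of their range. The 99.9th percentile of loci lay at 34.8, 34.7, 27.5, 32.1 and 29.1 units in EV, M, P, MP and WT. Olfactory and vomeronasal receptor genes, which fibroblasts should not use, had a median of 0.280 units in EV and 0.189 in M and of 0 in P, MP and WT, with 95th percentiles of 0.567, 0.868, 0.0510, 0.0976 and 0.0693. Meis1 was higher in M (16.8 units) and MP (15.4) than EV (8.32), as labelled. The log2 ratios to EV were 0.93 and 0.82, short of the 2-fold call used here, and Meis1 stood at 8.86 units in P and 12.4 in WT. Pknox1, at 0.554 units in P and 0.569 in MP, was below both EV (2.16) and WT (11.0), which goes against the P and MP labels. P and MP below mean the libraries so labelled, and every direction drawn from them has this limit. Fibroblast markers stood at 1 unit or more in every library (9 of 9 found, led by Col1a2 at 17.6 to 22.3 units, with S100a4 not matched). T cell genes, looked at because Lef1 and Tcf7 are also used by thymocytes, summed to 4.25 units over 7 genes in EV and to between 1.26 and 2.17 in the others, with Cd3e, Cd3g and Rag1 at 0 in P and MP. Among the macrophage genes found, Csf1r stood at 1.17 to 3.71 units, while Ptprc, Emr1 and Itgam stood at 0.362 or less. Among the neural genes, Map2 stood at 11.0 to 16.2 and Tubb3 at 5.05 to 12.0, while Elavl4, Snap25 and Gfap stood at 0.68 or less. Of the pluripotency genes, Nanog stood at 0.776 to 1.80, and Pou5f1 and Zfp42 at 0.716 or less. No epithelial or endothelial gene passed 1.16. The part of other cells in the results was not tested.

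Of the 10 genes, Axin2, Nkd1, Nkd2, Dact1 and Lef1 were 2-fold apart in at least 1 pair, and Znrf3, Tcf7, Tcf7l1 and Tcf7l2 in none. Rnf43 reached 1 unit in no library, so it was never kept and could not be called. The share of all genes apart in at least 1 of these pairs was not computed, so each pair is given with its own share. In M against EV, 7 genes were kept and none was 2-fold higher or lower, against 0.296% higher and 0.628% lower among all 11144 kept genes. In P against EV, 1 of 7 was higher (Dact1) and 1 lower (Axin2), with 0.654% and 1.85% of all 11163 genes. In MP against EV, 1 of 7 was higher (Dact1) and none lower (0.208% and 2.05% of 11034). In WT against EV, 2 of 9 were higher (Nkd1 and Nkd2) and 2 lower (Axin2 and Lef1), with 6.31% and 3.2% of 11657. None of 7 was apart in MP against M (0.23% higher and 1.28% lower of 10855). In MP against P, 1 of 7 was higher (Axin2) and none lower (0.251% and 0.761% of 10771). When WT was set against P, Nkd1 and Nkd2 were higher and Lef1 lower, 2 and 1 of 9 kept, with 6.41% and 1.91% of 11404. Nkd1 and Nkd2 reached 1 unit in WT only. They were thus kept only in the pairs with WT, where they could not be called lower in WT. Against EV, the kept members had median log2 ratios of 0.31 (M), -0.02 (P), 0.27 (MP) and 0.13 (WT), beside -0.01, -0.05, -0.04 and -0.07 over all kept genes. These comparisons share the EV library, so they are not independent of each other. The plot of levels by library shows the values behind these counts, and the plot of log2 ratios sets them beside the range of all genes.

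**Figure D1:**
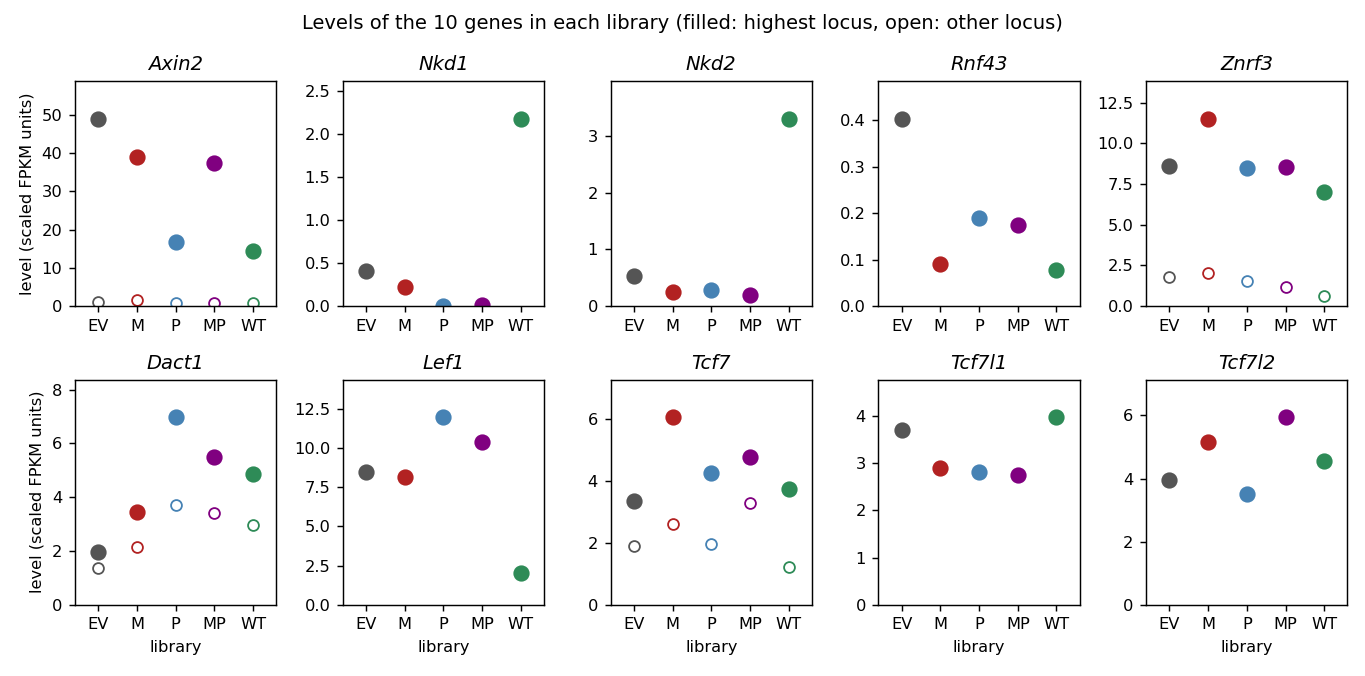
Level of each of the 10 genes (vertical axis, scaled FPKM units, from 0, with its own range per panel) in the 5 libraries (horizontal axis); filled points are the locus used, open points the other locus where a gene has 2, and each point is 1 library. Axin2 stands at 49.0, 39.0 and 37.4 units in EV, M and MP and at 16.8 and 14.4 in P and WT, Lef1 is lowest in WT (2.03), and Nkd1 and Nkd2 are highest in WT (2.18 and 3.31).

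**Figure D2:**
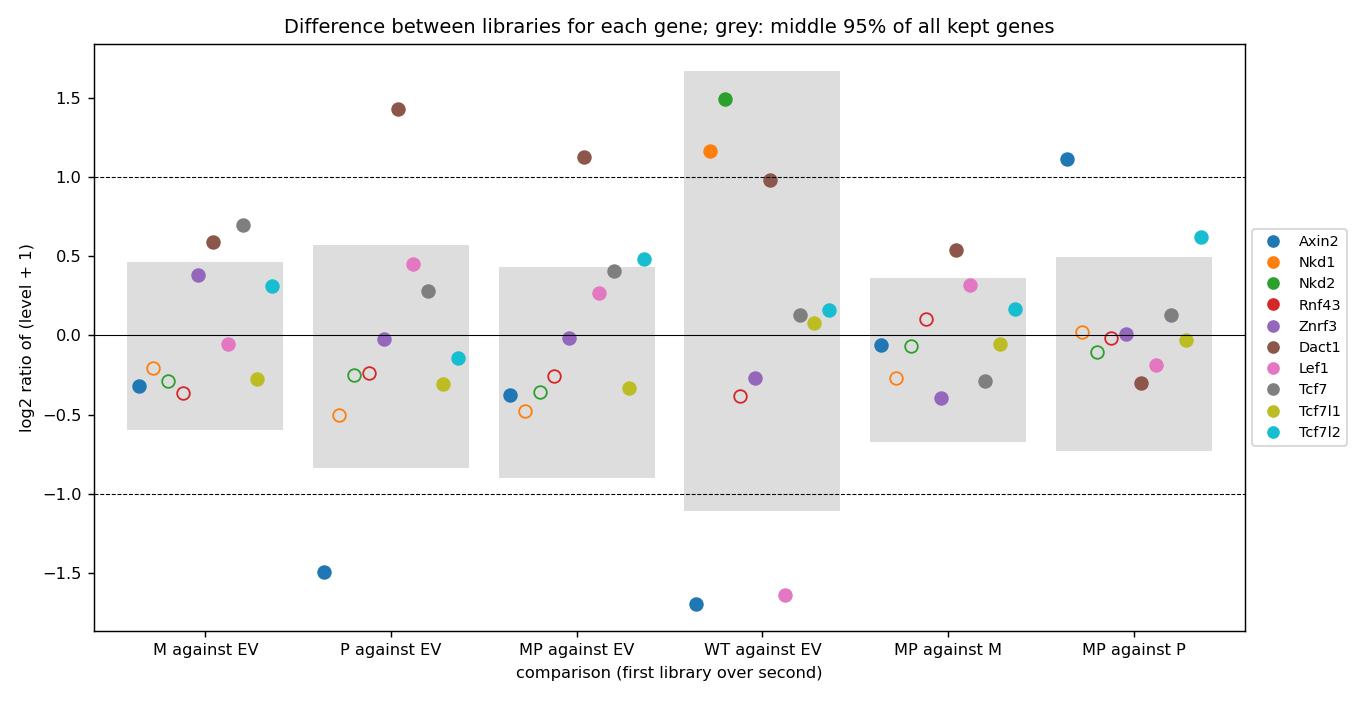
Log2 ratio of (level + 1) between the first and second library (vertical axis) for each gene (coloured points) in 6 comparisons (horizontal axis); open points did not reach 1 unit in either library, dashed lines mark a 2-fold difference, and grey bands hold the middle 95% of all kept genes. Axin2 lies below the band in P (-1.49) and WT (-1.70) against EV and above it in MP against P (1.11), and Dact1 lies above it in P (1.43) and MP (1.13) against EV.

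Axin2, the inducible scaffold of the destruction complex and the pathway's best known feedback target, had the highest level of the members in every library. Its locus (XLOC_005550) stood at 49.0, 39.0, 16.8, 37.4 and 14.4 units in EV, M, P, MP and WT. EV, M and MP thus formed a high set, and P and WT a low one. By rank among 21372 gene symbols, Axin2 was 10th in EV, 15th in M and 14th in MP, but 373rd in P and 738th in WT. The level in P was 34.2% of EV and the level in WT 29.4%, log2 ratios of -1.49 and -1.70, which lay at percentiles 0.466 and 0.858 of all kept genes. M and MP stood at 79.6% and 76.4% of EV (-0.32 and -0.38, the latter 0.05 under median scaling). MP against P was 1.11, at percentile 99.8, a call that ended with the upper quartile taken over loci present in every library (0.98) and under quantile normalisation (0.9997), whereas MP against M was -0.06 (0.31 under median scaling). The 99.9th percentile of each library moved in the same direction, from 34.8 units in EV to 27.5 in P and 29.1 in WT. Divided by it, Axin2 stood at 1.41 in EV, 1.12 in M and 1.17 in MP against 0.609 in P and 0.495 in WT. The highest single-gene locus stood at 71.75, 74.73, 53.45, 62.6 and 43.87 units in EV, M, P, MP and WT. The part of the libraries' range in the Axin2 levels was not tested. The other Axin2 locus (XLOC_005551) stood at 1.09, 1.67, 0.798, 0.915 and 0.692 units in EV, M, P, MP and WT. P and WT were again lowest, by far less, with log2 ratios to EV of -0.22 and -0.30.

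The RefSeq window before the Axin2 start (GRCm38.p6, chr11:108920099-108920348, plus strand), shown because Axin2 was 2-fold apart in 3 of the pairs, was searched with those of the other members for 4 kinds of word on both strands. These were the TCF/LEF word CTTTGAA and its variants spelled CTTTGAT, also CTTTGTA, and lastly CTTTGTT, the AP-1 word TGACTCA, the Meis word TGACAG and the longer Prep-Pbx word, which contains the Meis word. Capitals in this and the later windows mark a match. The 250 bases before the start held none of these words in Axin2:
Axin2: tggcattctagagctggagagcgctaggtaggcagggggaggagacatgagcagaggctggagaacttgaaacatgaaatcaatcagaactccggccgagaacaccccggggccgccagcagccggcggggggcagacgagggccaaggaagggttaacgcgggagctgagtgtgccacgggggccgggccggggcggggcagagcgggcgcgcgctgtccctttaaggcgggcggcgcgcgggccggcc
Among all 32851 windows of this length, 14.8% held a TCF/LEF word, 4.46% the AP-1 word, 15.9% the Meis word and 0.198% the Prep-Pbx word. Windows were found for 9 of the 10 genes (Znrf3 had none), 15 in all because some genes have several starts. Of these 15, 2 (13.3%) held a TCF/LEF word and 4 (26.7%) the Meis word, and none held the AP-1 or Prep-Pbx word. Windows of 1 gene can overlap and are not independent. A match is a description of the letters and does not show binding.

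Ctnnb1, which encodes beta-catenin itself, was high and low in the same libraries as Axin2. Its levels were 15.2, 12.3, 7.71, 12.6 and 6.11 units in EV, M, P, MP and WT. P stood at 50.8% and WT at 40.2% of EV, and WT against EV was 2-fold apart (log2 -1.19) while P against EV was not (-0.89). Scaled to the 99th percentile of each library, or to the upper quartile over loci present in every library, WT against EV was -0.97 and -0.95, short of 2-fold. The level of Axin2 over that of Ctnnb1 was 3.23 in EV, 3.18 in M and 2.97 in MP, and 2.17 in P and 2.36 in WT.

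**Figure D3:**
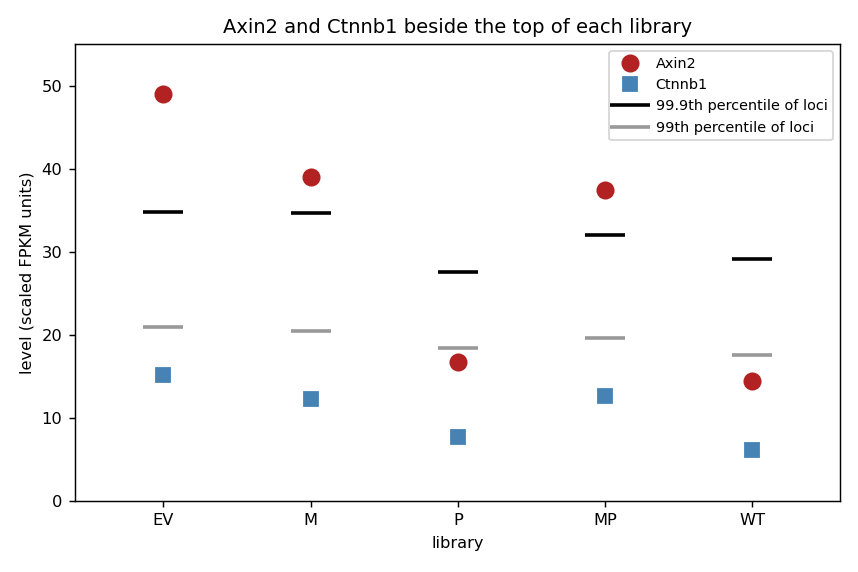
Levels of Axin2 (circles) and Ctnnb1 (squares) in scaled FPKM units (vertical axis, from 0) in the 5 libraries (horizontal axis), with bars at the 99th and 99.9th percentiles of single-gene loci. Axin2 lies above the 99.9th percentile in EV, M and MP and below the 99th in P (16.8 against 18.4) and WT (14.4 against 17.6).

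Nkd1 and Nkd2, the 2 Naked cuticle proteins that bind Dishevelled, were low in all hypomorphic lines and higher in WT. Nkd1 (XLOC_050398) stood at 0.414, 0.228, 0.0170 and 2.18 units in EV, M, MP and WT and was listed at 0 in P. Nkd2 (XLOC_010947) stood at 0.527, 0.248, 0.282, 0.194 and 3.31 units in EV, M, P, MP and WT. WT was highest for both, with no other library above 0.527, so both passed the filter of 1 unit through WT alone. Both EV values lay under the 95th percentile of receptor genes in that library (0.567 units), and both M values under that of M (0.868), so in EV and M neither gene stood above that background. In WT both were far above the corresponding value of 0.0693. WT over EV was 1.17 for Nkd1 and 1.5 for Nkd2 on the log2 scale, at percentiles 95.1 and 96.8, inside the middle 95% of all kept genes, which reached 1.67 in this pair. Neither gene reached 5 units in any library, and Nkd1 stood at 0.94, under 2-fold, when libraries were scaled to their median. The windows before their starts, shown because these related genes moved together, were Nkd1 (GRCm38.p6, chr8:88527383-88527632, plus strand), with the Meis word on the minus strand at -61 to -56 from the start, and Nkd2 (chr13:73847632-73847881, minus strand), with no match:
Nkd1: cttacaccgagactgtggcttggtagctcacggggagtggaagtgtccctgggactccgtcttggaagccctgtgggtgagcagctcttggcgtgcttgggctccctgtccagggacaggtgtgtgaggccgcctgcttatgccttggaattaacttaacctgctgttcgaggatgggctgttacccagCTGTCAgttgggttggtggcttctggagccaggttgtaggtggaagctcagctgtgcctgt
Nkd2: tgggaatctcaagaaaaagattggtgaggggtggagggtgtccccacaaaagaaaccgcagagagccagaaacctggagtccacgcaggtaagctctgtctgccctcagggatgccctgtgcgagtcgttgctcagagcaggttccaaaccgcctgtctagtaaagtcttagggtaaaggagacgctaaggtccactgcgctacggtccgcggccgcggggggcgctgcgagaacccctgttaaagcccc

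Of the 2 ubiquitin ligases, Znrf3 was well expressed and Rnf43 was not. Znrf3 (XLOC_005722) stood at 8.63, 11.5, 8.48, 8.54 and 7.01 units in EV, M, P, MP and WT. M was the highest library, with a log2 ratio to EV of 0.38 at percentile 96.2, and WT was the lowest, at -0.27. P and MP lay close to EV on that scale (-0.02 and -0.01), and their sign depended on the scaling. The other Znrf3 locus (XLOC_006794) ran from 2.01 units in M to 0.609 in WT, again with M highest and WT lowest. Rnf43 (XLOC_005300) stood at 0.404, 0.0915, 0.191, 0.175 and 0.0774 units in EV, M, P, MP and WT. It never reached 1 unit, and in EV, M and WT it was close to or under the 95th percentile of receptor genes.

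Dact1, a Dishevelled-binding adaptor of Wnt and TGF-beta signalling, was lowest in EV and M. Its levels (XLOC_009286) were 1.96, 3.45, 6.97, 5.48 and 4.85 units in EV, M, P, MP and WT. P stood 3.56-fold, MP 2.8-fold, WT 2.48-fold and M 1.76-fold above EV before the 1 unit was added. On the log2 scale P was 1.43 and MP 1.13 above EV, at percentiles 99.8 and 99.9, and M was 0.59 above at percentile 98.5. WT was 0.98, just under 2-fold, and passed it under 4 of the other settings tried. MP over M was 0.54 and MP over P -0.30 (0.04 under median scaling). The other locus (XLOC_008851) had the same order of libraries, at 1.37, 2.15, 3.72, 3.43 and 2.97 units in EV, M, P, MP and WT. There P and MP stood 0.99 and 0.90 over EV on the log2 scale, both just under 2-fold. The 2 loci thus share the order of libraries, but the 2-fold calls hold at the main locus only. The 2 low libraries, EV and M, are also those with the high deposited FPKM, and the part of that shift in this result was not tested. The window before the Dact1 start (GRCm38.p6, chr12:71309634-71309883, plus strand), shown because Dact1 was apart in both P and MP, held the Meis word on the plus strand at -119 to -114:
Dact1: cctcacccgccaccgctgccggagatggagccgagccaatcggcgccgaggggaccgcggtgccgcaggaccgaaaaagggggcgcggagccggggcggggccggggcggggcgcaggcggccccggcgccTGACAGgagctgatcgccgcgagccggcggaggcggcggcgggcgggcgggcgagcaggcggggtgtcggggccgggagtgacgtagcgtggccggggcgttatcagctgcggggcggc
The related genes Dact2 and Dact3 were highest in WT. Dact2 stood at 0.895, 0.180, 1.52, 0.712 and 4.54 units in EV, M, P, MP and WT, and Dact3 at 5.28, 5.72, 6.84, 6.06 and 12.3. Both were 2-fold higher in WT than EV (1.55 and 1.09, with Dact3 at 0.77 under median scaling), while neither was in P or MP. In WT against EV, 6.31% of all kept genes were higher, and the middle 95% reached 1.675. Dact2 reached 1 unit in WT but not in EV, and its call ended where genes were kept at 5 or more.

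Lef1, a TCF/LEF factor that itself responds to Wnt signals, set WT apart from the hypomorphic lines. Its locus (XLOC_032284) stood at 8.47, 8.13, 12.0, 10.4 and 2.03 units in EV, M, P, MP and WT. The WT level was 24.0% of EV, 25.0% of M, 17.0% of P and 19.6% of MP. The log2 ratio was -1.64 in WT against EV, at percentile 0.969, and -2.09 in WT against P, at percentile 0.395. Among the hypomorphic lines P and MP stood higher, at 0.45 and 0.27 over EV, and MP stood 0.32 over M. WT is a separate line with no named vector, so its genotype, its origin and infection cannot be told apart here. The authors' deposited tables marked Lef1 as FAIL in all 4 comparisons, so they hold no call on it.

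RefSeq lists 4 starts for Lef1. The first window (GRCm38.p6, chr3:131110047-131110296, plus strand) held no searched word. The window of the start furthest downstream (chr3:131156044-131156293, plus strand), inside the gene's span, was the only one of the 15 member windows with both a TCF/LEF word (CTTTGTA on the minus strand, -147 to -141) and the Meis word (minus strand, -223 to -218). Both are shown because Lef1 has the widest range of log2 levels among the members; the tables give 1 value per locus and do not divide it between starts:
Lef1, first start: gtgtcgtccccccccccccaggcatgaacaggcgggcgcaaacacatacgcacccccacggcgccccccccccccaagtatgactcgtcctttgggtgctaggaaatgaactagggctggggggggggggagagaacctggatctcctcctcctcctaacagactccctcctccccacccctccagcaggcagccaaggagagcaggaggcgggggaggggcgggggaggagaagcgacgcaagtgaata
Lef1, start furthest downstream: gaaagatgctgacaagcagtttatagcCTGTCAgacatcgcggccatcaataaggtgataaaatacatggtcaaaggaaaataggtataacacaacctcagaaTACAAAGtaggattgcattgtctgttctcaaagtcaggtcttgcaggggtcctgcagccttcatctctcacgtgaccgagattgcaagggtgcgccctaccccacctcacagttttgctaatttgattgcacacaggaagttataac

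The other TCF/LEF genes varied less. Tcf7, the gene of TCF1 (XLOC_005932), stood at 3.34, 6.05, 4.26, 4.77 and 3.74 units in EV, M, P, MP and WT. M was highest, at 0.70 over EV and percentile 98.9, the largest difference of any member in that pair, yet under 2-fold. At its other locus (XLOC_005937) MP was highest instead, at 3.28 units against 2.61 in M and 1.90 in EV. Tcf7l2, the gene of TCF4 and a main partner of beta-catenin in many tissues, stood at 3.96, 5.17, 3.51, 5.94 and 4.54 units in EV, M, P, MP and WT (XLOC_027025). The libraries with added Meis1, M and MP, held its 2 highest levels, at 0.31 over EV and 0.62 over P, percentiles 94.3 and 98.9, and neither difference reached 2-fold. Tcf7l1, the gene of TCF3 and mostly a repressor, stood at 3.71, 2.89, 2.81, 2.74 and 3.97 units in EV, M, P, MP and WT (XLOC_043696), a range of 0.41 on the log2 scale. EV and WT were its 2 highest libraries. In WT the ratios of Tcf7, Tcf7l1 and Tcf7l2 to EV (0.13, 0.08 and 0.16) turned negative under median scaling and under quantile normalisation, and that of Tcf7 also with its loci summed. Summed, the 4 genes stood at 19.5, 22.2, 22.5, 23.9 and 14.3 units in EV, M, P, MP and WT. Lef1 made up 43.5%, 36.6%, 53.1%, 43.6% and 14.2% of these sums, the lowest in WT, where Tcf7l2 had the largest share (31.8%).

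**Figure D4:**
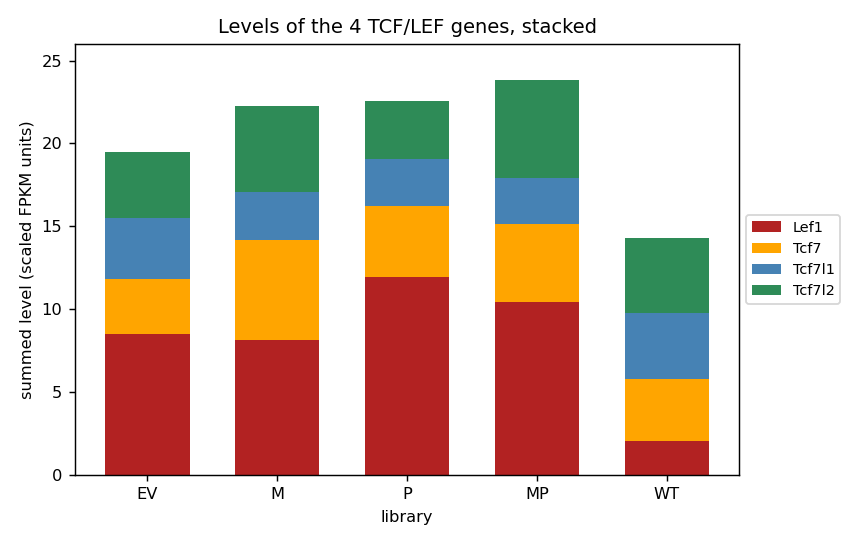
Levels of Lef1, Tcf7, Tcf7l1 and Tcf7l2 stacked in each library (vertical axis, scaled FPKM units, from 0; horizontal axis, library; 1 library per bar). The Lef1 part is 2.03 units in WT and between 8.13 and 12.0 in the 4 hypomorphic lines, while the other 3 parts together differ less.

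The rest of the pathway was followed through 4 lists: 19 receptors and co-receptors, 15 genes of the destruction complex and Dishevelled, 18 nuclear partners including Ctnnb1, and 25 other Wnt target genes, 77 found genes in all. In M against EV none of 62 kept genes was 2-fold apart (0.296% higher and 0.628% lower over all genes). In P against EV, 1 of 64 was higher and 1 lower (0.654% and 1.85% over all genes): Notum, a secreted Wnt deacylase, stood at 2.94 and 0.931 units (log2 1.03), and Apcdd1, a membrane inhibitor of the pathway, at 1.54 and 5.51 (-1.36). In MP against EV none of 62 was higher and 1 was lower (0.208% and 2.05% over all genes), again Apcdd1, at 2.04 units (-1.10). That call ended under median scaling (-0.79), quantile normalisation (-0.96) and the upper quartile over loci present in every library (-0.99). Apcdd1 was also the 1 of 61 lower in MP than M (-1.18, and -0.93 under median scaling), with 1.28% lower over all genes. In MP against P, 1 of 63 was lower, the R-spondin receptor gene Lgr6, at 0.385 and 2.01 units (-1.12, and -0.93 under quantile normalisation), with 0.761% lower over all genes. In WT against EV, 6 of 64 were higher and 2 lower, beside 6.31% higher and 3.2% lower over all genes. Notum and Lgr6 never reached 5 units, so their calls ended where genes were kept at 5 or more. The destruction complex list had no 2-fold member in any of these pairs, and its median was -0.15 in WT against EV beside -0.07 over all kept genes.

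Among receptors, Lgr6 (4.25 units in WT, 0.973 in EV; log2 1.41) was the 1 of 15 kept genes apart, while Fzd7 (13.3 units in WT, 12.0 in EV) and Lrp6 (12.0 and 13.0) stood close. Among nuclear partners Pygo1, which links beta-catenin to chromatin, had levels of 8.24 (WT) and 1.32 (EV), log2 1.99, and the Groucho-type corepressor gene Tle2 at 14.3 and 3.30 (1.83), with Ctnnb1 lower. Among the genes listed as other targets, Wisp2 stood at 6.20 and 0.790 (2.01) and Notum at 4.49 and 0.931 (1.51). Bmp4 stood at 11.5 and 4.01 (1.32). Gjb2, a connexin gene also put on that list, stood at 0.198 and 16.5 (-3.87). Whether Gjb2 or the other listed genes respond to Wnt in these cells was not tested. Myc (10.9 in WT and 14.7 in EV), Ccnd1 (11.6 and 15.8) and Cd44 (14.7 and 20.0), textbook targets of beta-catenin, did not reach 2-fold. Sp5, another direct target, stood at 0.177 units or less in every library, and Lgr5 at 0.387 or less, both within the receptor-gene background of EV. Apcdd1 was highest in WT (10.1 units) and lowest in P (1.54). Axin2 was highest in EV, Lef1 in P and Apcdd1 in WT.

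**Figure D5:**
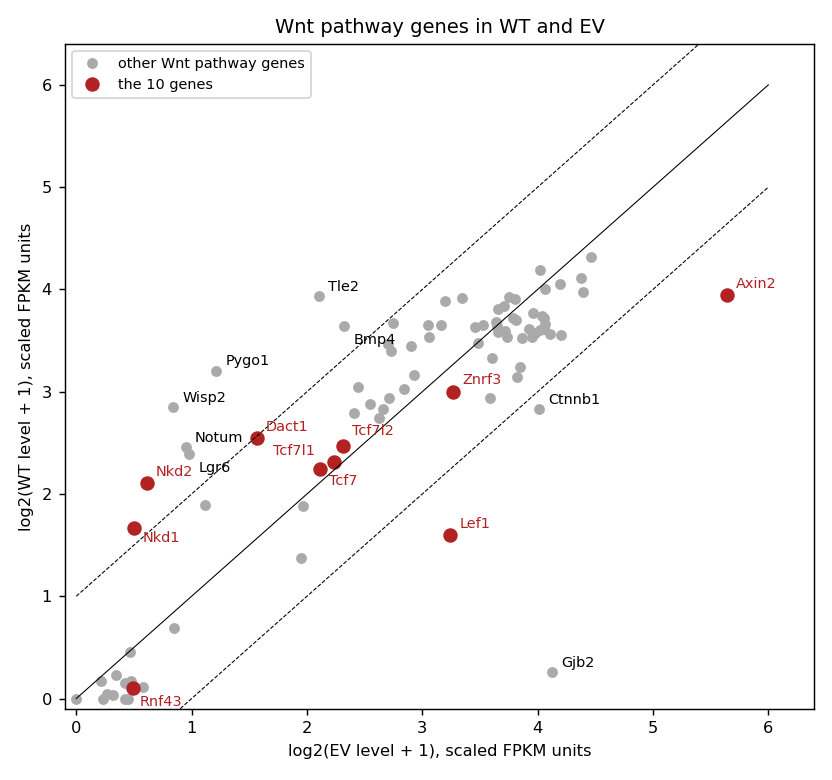
Log2(level + 1) in WT (vertical axis) against EV (horizontal axis), from scaled FPKM units, for the 10 genes (red, named) and 77 other Wnt pathway genes (grey, the 8 furthest named); the solid line marks equal levels and dashed lines a 2-fold difference. Axin2 and Lef1 lie below the lower dashed line with Ctnnb1 and Gjb2, and Nkd1 and Nkd2 above the upper one with Tle2, Pygo1, Wisp2, Notum, Bmp4 and Lgr6.

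Profiles over the 5 libraries were compared by the root mean square distance between centred log2 levels, among 9034 genes that reached 5 units. Nearest to Axin2 were Filip1l (distance 0.150), Ctse (0.196), Adarb2 (0.224), Mif (0.229) and Kcnip1 (0.237), and Ctnnb1 lay at 0.2501. Filip1l stood at 11.4, 8.65, 4.32, 8.55 and 3.73 units in EV, M, P, MP and WT. Nearest to Lef1, the member with the widest log2 range (2.09), were P2ry2 (0.0890), Cryl1 (0.0964), Tnfrsf21 (0.134), Lif (0.157) and Pdlim4 (0.159). P2ry2 stood at 6.67, 6.28, 8.06, 7.12 and 1.18 units in the same order. By Pearson correlation instead, none of the 5 nearest to Axin2 was shared and 2 of the 5 nearest to Lef1 were. With 5 libraries as the points, all sharing the same scaling, these are descriptions.

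In the authors' deposited tables, 1 of the 14 member loci was called higher in M than EV (Znrf3, XLOC_005722, q = 0.00191), where 4.39% of single-gene loci were called higher and 0.0131% lower. In P, MP and WT, 8, 8 and 10 of the 14 were called lower and none higher. Among single-gene loci, 43.3%, 41.2% and 44.6% were called lower and 0.00437%, 0.00437% and 0.048% higher. The authors' tests covered 5 of the member loci in M and 8, 8 and 10 in P, MP and WT. Every tested member locus was thus called lower in P, MP and WT. The other member loci were marked NOTEST or FAIL. The shares are over all single-gene loci, tested or not. The FPKM beside these calls differ between whole libraries, as the upper quartiles show: Axin2 was deposited at 771, 1672, 19.4, 36.0 and 17.5 FPKM in EV, M, P, MP and WT, and Dact1 at 30.8, 148, 8.09, 5.28 and 5.89. On those values Dact1 stood lower in P than EV, the opposite of its scaled direction.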

How the data were processed

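The authors deposited 4 tables, each with EV and 1 other library, holding FPKM per locus with their own p-value and q-value columns (per the file headers). Total RNA was extracted with a Qiagen kit for Illumina libraries, per the labels' protocols. TopHat, Cufflinks and Cuffdiff on mm9 are listed in the submitters' processing notes; versions, annotation, filters and strand handling are not given in the sources used here. The tables hold no coordinates, so RefSeq promoter windows (GRCm38.p6) were matched by symbol.

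From these values, levels were scaled per library as the report states, with EV from the M table, and compared with a pseudocount of 1 unit (Python 3.11.15, pandas 2.3.3). MP against M, MP against P and WT against P were set across tables normalised separately. No p-value was computed. The EV column of the other tables differed from that of M by 1 factor each (1.10, 0.972 and 1.12 for P, MP and WT; within 1% at 99.4% of loci or more). The fold rule recovered planted differences in simulated tables made from the WT profile, with a constant factor per library and little noise. Such tables lack the differences in background and range seen between these libraries, so they check the arithmetic of the rule only. Members, lists and rules were chosen with earlier results of these data known. The genes named are the members, list genes 2-fold apart (at most 4 per list and pair), Meis1, Pknox1 and, for Axin2 and the member of widest log2 range beside it, the 5 nearest profiles, leaving out unnamed gene models, small RNAs and receptor families. A comparison of protein sequences was planned and not run. Fzd7, Lrp6, Myc, Ccnd1, Cd44, Sp5 and Lgr5 were named after their values were seen. Alternatives were the pseudocount, scaling, filter, EV column and locus choice; 2 (99th percentile and quantile scaling) were added after seeing the data. Depth is unknown, so no counting interval could be given.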

Additional observations from a re-analysis of the deposited data

Results flagged for a closer look

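In 3 genes the pair that adds 1 factor without the other and the pair that adds it with the other pointed in opposite directions, by at least 0.25 on the log2 scale each way. With 1 library per group these differences were not tested. The share of all kept genes that meet this rule was not computed, so the 3 genes have no background beside them. For added Meis1, Axin2 stood at -0.32 in M against EV and 1.11 in MP against P, and Dact1 at 0.59 and -0.30. For added Prep1, Tcf7 stood at 0.28 in P against EV and -0.29 in MP against M, at its main locus. At the other Tcf7 locus the same pairs gave 0.02 and 0.24, which are not opposite. The other Axin2 locus gave 0.35 and 0.09 in its pairs, also not opposite. The other Dact1 locus gave 0.41 and -0.09, the latter under 0.25 in size. Under quantile normalisation Axin2 stood at -0.19 in M against EV and Dact1 at -0.18 in MP against P. Tcf7 then stood at 0.17 and -0.22, so in each gene at least 1 side fell under 0.25. Scaling to the median gave 0.04 for Dact1 in MP against P and 0.03 for Tcf7 in MP against M, which ends the opposition in both genes. Pknox1 stood at 0.554 units in P and 0.569 in MP, below EV in both, so these pairs go by the labels alone.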

How the results depend on the processing

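No paired analysis was possible because each group has 1 library, and for the same reason no library could be left out. Of the 60 log2 ratios of members in the 6 pairs other than WT against P, those with EV from its own table and those with no filter all kept their direction and their call, as did 59 with a pseudocount of 0.1 (Dact1 in WT against EV was 1.27), 58 with genes kept at 5 or more, 43 under median scaling, 47 under quantile normalisation, 54 under 99th percentile scaling, 57 with loci summed and 55 with the upper quartile taken over loci at 1 FPKM or more in every library. Members under 1 unit in both libraries have no call, though with a pseudocount of 0.1 ratios of Nkd1, Nkd2 and Rnf43 passed 2-fold in size (such as -2.36 for Nkd1 in P against EV). In WT against P, Tcf7l2 turned from 0.30 to -0.01 under median scaling and -0.05 under quantile normalisation. On FPKM without scaling, whose median log2 ratios to EV were 1.26, -3.36, -3.44 and -3.21 for M, P, MP and WT, 7 members were 2-fold higher in M, 10 lower and 0 higher in each of P, MP and WT, and 10 lower in MP than M. The directions of Dact1 in P (-1.94) and MP (-2.30) and of Nkd1 (-1.18) and Nkd2 (-1.03) in WT reversed there, because whole libraries shift. For WT against EV, 1 member was higher under median scaling (Nkd1 at 0.94) and 0 with genes kept at 5 or more, and 1 was lower with P as the reference. For MP against P, 0 were higher with the upper quartile over loci present in every library (Axin2 at 0.98) and under quantile normalisation (Axin2 at 0.9997). Among the settings with scaling, Axin2 against EV ran from -1.14 to -1.54 in P and from -1.28 to -2.02 in WT, and Lef1 in WT from -1.38 to -2.01. Median scaling moved the median of all kept genes to 0.36 in MP and -0.37 in WT against EV and the share of higher among 2-fold genes from 9.24% to 40.4% in MP and from 66.4% to 43.0% in WT, from 24.8% to 72.7% in MP against P and from 15.2% to 32.3% in MP against M. In P and WT against EV it went from 26.2% and 66.4% to 37.8% and 77.5% under 99th percentile scaling and to 42.3% and 79.6% with the upper quartile over loci present in every library. Quantile normalisation gave 53.8% in M (32.0% as reported), 27.5% in MP and 46.2% in MP against P. Levels near 0 cannot be read in EV and M, where receptor genes also have values, and no counts were given to set a floor.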

Other observations

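The genes whose log2 levels correlated most with Axin2 over the 5 libraries were Ywhaq, Fert2, Rsrc1, Hdac3 and Sec31a (Pearson r from 0.9986 to 0.9994, n = 5 libraries), with ranges of 0.71, 0.33, 0.65, 0.40 and 0.45 on the log2 scale against 1.70 for Axin2. Rsrc1 stood at 69.3, 62.7, 47.2, 62.6 and 43.9 units in EV, M, P, MP and WT. Its MP and WT values equal the highest level of any single-gene locus in those libraries. The 5 were picked for this correlation, so EV, M and MP standing above P and WT in each follows from the choice. Their differences were smaller than at the main Axin2 locus, and none of the 5 is on the Wnt lists. In all 5 libraries the level of Znrf3 exceeded that of its paralog Rnf43, which stood between 0.0774 and 0.404 units.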
